A study of Homo sapiens with 2 samples.

Results

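The genes described here are 46 genes of mitosis, the stage of the cell cycle in which copied chromosomes are parted into daughter cells. They were listed by name and sorted by known role, with no threshold on a measured value. All 46 are among the 13704 genes measured. They comprise 11 cyclins, kinases and phosphatases, 8 genes of the chromosomal passenger complex and the spindle checkpoint, 14 centromere and kinetochore genes, 4 genes of anaphase and its ubiquitin ligase, and 9 genes of the spindle, of chromosome structure and of cytokinesis. RNA was taken from HCT116, an established human colorectal cancer cell line, grown in RPMI-1640 with fetal calf serum and antibiotics. HCT116-GFP is labelled wild type, and HCT116-CPEB4 carries CPEB4, an RNA-binding protein, over-expressed through a lentivirus. The sources used here do not say whether the HCT116-GFP cells received a vector or whether either line is a single clone. Each line was measured on 1 array, so no difference has a replicate and no p-value was computed.

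Entry into mitosis is set by CDK1 bound to cyclin B, with Polo-like and Aurora kinases acting beside it. Kinetochores, protein assemblies built on each centromere, then attach chromosomes to spindle microtubules, and the spindle checkpoint holds the cell until every kinetochore is attached. The anaphase-promoting complex next marks securin and cyclin B for destruction, which releases separase to cut the cohesin between sister chromatids. Most of these transcripts are made in late S phase and G2, so in a mixed culture their levels follow the share of cells in those phases as well as the output of each cell, and bulk arrays cannot tell these apart. CPEB proteins bind cytoplasmic polyadenylation elements and regulate the poly(A) tails and translation of several mitotic messengers, that of cyclin B1 among them. The arrays read RNA level only, not tail length or translation.

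The values are linear intensities, 1 for each probe set, and a gene may have several probe sets. Median intensity over 54675 probe sets was 60.6 for HCT116-GFP and 61.1 for HCT116-CPEB4, and the trimmed means were 500.1 on both. Differences are log2 of HCT116-CPEB4 minus log2 of HCT116-GFP, so a value of 1 is 2-fold higher in HCT116-CPEB4. A gene is represented by its probe set of highest mean log2 intensity among those reaching 60.8 on either array (the dim filter). The introduced gene did not read higher in the line named for it. Probe sets of CPEB4 read 731 and 628 (−0.22), 758 and 558 (−0.44), 183 and 174 (−0.08), and 60.1 and 21.0 under the dim filter, in the order HCT116-GFP, HCT116-CPEB4. No source used here says where these probe sets lie in the transcript, and so whether the introduced sequence holds them, and "the library labelled HCT116-CPEB4" is meant wherever that line is named. The epithelial markers EPCAM (20994 and 20717), KRT18 (27353 and 28606), KRT8 (6802 and 7640.4) and CDH1 (3709 and 2954) were bright on both arrays, whereas the colon markers CDH17, LGALS4, GPA33 and TFF3 stayed under the dim filter. CDX1 (18.0 and 99.5) was under it on the HCT116-GFP array, as was the representing probe set of VIL1 (32.2 and 77.0). A further VIL1 probe set over the filter stood at −5.60, so VIL1 had no settled direction. KRT20 (216 and 163) and CDX2 (103 and 120) were over the filter on both arrays. Among markers of other cell types, 2 of 6 for fibroblasts, 2 of 6 for blood cells and 1 of 4 for endothelium had a probe set over the filter. These were COL1A1 (949 and 1292) and DCN (43.2 and 102), CSF1R (26.4 and 68.8) and HBB (328 and 287), and PECAM1 (149.8 and 94.97). Probe sets over the filter ran from −3.05 to 0.63 for COL1A1 and from −0.19 to 2.31 for HBB. The part of these markers in the differences was not tested. The ratio of 3′ to 5′ signal, a measure of RNA and labelling quality, was 8.23 and 10.3 for ACTB and 0.989 and 1.04 for GAPDH, and its part in the differences was not tested.

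Mitotic genes as a whole differed little between the lines. Of the 46, 31 lay above 0 and 15 below, against 50.1% of all genes above 0, and the median difference was 0.07, or 1.05-fold, against 0.00 for all genes. The middle of the members, from the lower to the upper quartile, ran from −0.12 to 0.24. By size, 43 of 46 lay within 1.5-fold. INCENP, CENPI and CENPK were higher by 1.5-fold or more, where 8.22% of all genes were, and 0 members were lower by that much, where 8.30% of all genes were. INCENP alone passed 2-fold upwards and 0 members passed it downwards, against 3.55% and 3.85% of all genes. INCENP reached the dim filter only on the HCT116-CPEB4 array, where it is higher, so nothing is read from its place in these counts.

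**Figure D1:**
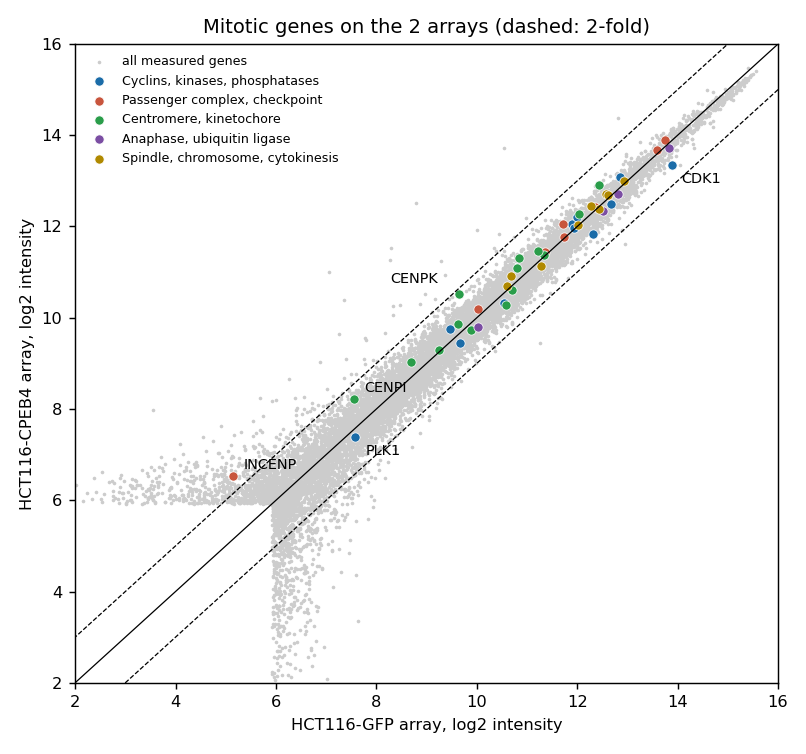
Log2 intensity on the HCT116-GFP array (horizontal axis) against the HCT116-CPEB4 array (vertical axis) for 46 mitotic genes, coloured by role, over 13704 measured genes in grey; the solid line marks equal values and the dashed lines 2-fold. The members lie close to the solid line, INCENP lies above the upper dashed line at the dim end, and CENPK is the bright member nearest to that line.

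Brightness matters for reading these counts, because dim values scatter more on a ratio scale. A stricter filter, 377 intensity units on either array, left 8459 genes and 43 members, without PLK1, INCENP and CENPI. Among these brighter genes 50.2% lay above 0, 2.67% were higher by 1.5-fold or more and 2.16% were lower by that much. Of the 43 members, 29 lay above 0, CENPK was the 1 gene past 1.5-fold upwards, and 0 were past it downwards. The central 95% of the brighter genes ran from −0.56 to 0.60. CENPK, at 0.88, was the 1 member of the 43 outside that range, and CDK1, at −0.55, was just inside it.

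The only internal check on a value is how well probe sets of one gene agree. The members have 95 probe sets of their own, of which 79 reached the dim filter. The other 16 ran from −2.75 to 2.59 and were not used. A single probe set stood over the filter for 25 members, and 21 members had several. Over those 21 the gap between the differences of the pair of brightest probe sets had a median of 0.18, against 0.27 over 6520 genes. For 34 of the 46 members the difference between the lines was no larger than that gap of 0.27 over all genes, and for 12 it was larger. Such sizes are common: 78.9% of all genes lay below a difference of 0.27, and 21.9% lay below −0.26. Nothing about the members is therefore read from the 12. All probe sets over the filter lay above 0 for 8 of the 21, namely CCNA2, AURKA, CENPI, CENPN, ZWILCH, ASPM, NUSAP1 and ECT2. Those of TOP2A lay below 0, and the other 12 members had probe sets on both sides.

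The members share promoter features that the list did not use. Promoters of mitotic genes are known for the cell cycle genes homology region (CHR), which the DREAM and MuvB complexes bind, and for CCAAT boxes, which NF-Y binds. RefSeq promoter windows (build GRCh38.p14), from 250 bases before to 50 after a listed start, were matched to 38 of the 46 members by symbol, 8 of them with several starts. Both strands were searched for the CHR letters TTTGAA or TTCGAA, for CCAAT, and for TTTCGCGC or TTTGGCGC as an E2F site. Among 129 matches in the windows of members, 1 pair of different motifs overlapped. A CHR match was found in 28 of the 38 members, against 19.5% of 27305 genes and 16.4% of all 35116 windows. A CCAAT match was found in 32 members, against 39.7% of genes and 34.6% of windows. An E2F match was found in 2 members, CDK1 and NUSAP1, against 1.40% of genes and 1.15% of windows. Among the 30 members with 1 listed start it was found in 1, against 1.13% of such genes, too few to compare.

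Genes with several starts have more chances of a match, so genes with 1 listed start were also counted apart. Of 30 such members, 73.3% held a CHR match, 80.0% a CCAAT match and 60.0% both. The shares over 22114 genes with 1 start were 17.2%, 36.2% and 6.91%. A match is a description of letters and not a binding site. Members with a CHR match had 17 above and 11 below 0 with a median of 0.06, and the 10 without had 8 above and 2 below with a median of 0.19. Those with both a CHR and a CCAAT match had 12 above and 11 below 0 with a median of 0.02, and the 15 without the pair had 13 above and 2 below with a median of 0.22. This is a description of these members and was not tested. All 8 matched genes of the spindle and cytokinesis group and all 5 of the passenger and checkpoint group held a CHR match. So did 7 of 12 kinetochore genes, 6 of 10 cyclins, kinases and phosphatases, and 2 of 3 anaphase genes. Over all genes the share was 19.5%. BIRC5, BUB3 and TTK of the passenger and checkpoint group had no window.

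**Figure D2:**
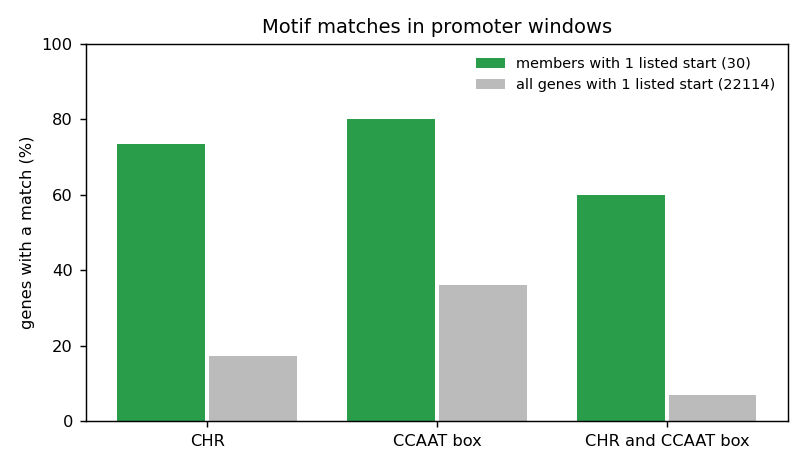
Share of genes (percent, vertical axis) with a motif match in the promoter window, for 30 members with 1 listed start in green and for 22114 genes with 1 listed start in grey. The members stand at 73.3% for the CHR, 80.0% for the CCAAT box and 60.0% for both, above the grey bars at 17.2%, 36.2% and 6.91%.

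The 150 bases before the start are shown for 4 members. At their representing probe sets, CDK1 and CDC20 read lower in HCT116-CPEB4 and CENPK and ZWINT read higher. The lower readings are weak: CDK1, at −0.55, had a mean of −0.12 over its 4 probe sets. CDC20, at −0.17, lay inside the median gap of 0.27 between probe sets. Capitals mark CHR matches (TTTGAA, or TTCAAA on the other strand) and CCAAT matches (CCAAT, or ATTGG on the other strand). For CDK1 and ZWINT, which have 2 listed starts, the downstream start was used. The windows are chr10:60778328-60778477 on the plus strand for CDK1, chr1:43358831-43358980 on the plus strand for CDC20, chr5:65563169-65563318 on the minus strand for CENPK and chr10:56361260-56361409 on the minus strand for ZWINT.
CDK1: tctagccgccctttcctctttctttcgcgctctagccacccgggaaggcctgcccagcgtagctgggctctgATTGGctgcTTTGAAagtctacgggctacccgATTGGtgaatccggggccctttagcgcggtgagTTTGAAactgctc
CDC20: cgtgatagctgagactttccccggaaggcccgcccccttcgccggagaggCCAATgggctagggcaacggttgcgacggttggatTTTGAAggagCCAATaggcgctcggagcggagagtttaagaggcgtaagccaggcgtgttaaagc
CENPK: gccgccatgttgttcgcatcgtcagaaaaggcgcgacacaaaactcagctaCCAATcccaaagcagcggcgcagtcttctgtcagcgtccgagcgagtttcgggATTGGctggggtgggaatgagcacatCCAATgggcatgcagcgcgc
ZWINT: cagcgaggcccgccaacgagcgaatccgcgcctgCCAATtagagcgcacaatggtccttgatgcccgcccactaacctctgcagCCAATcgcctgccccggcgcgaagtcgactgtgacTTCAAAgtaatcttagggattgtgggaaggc

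In these stretches CDK1 holds 2 CHR and 2 CCAAT matches, CDC20 holds 1 and 2, CENPK holds 0 and 3, and ZWINT holds 1 and 2. The pair that read lower and the pair that read higher at their representing probe sets thus both carry CCAAT matches, and CENPK lacks the CHR letters in its window.

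Cyclins, kinases and phosphatases had a median of −0.19 over 11 genes, with 5 above 0 and 6 below, and all 11 were within 1.5-fold. That median is the value of PLK1, which lies under the stricter filter. Without PLK1, under that filter, the median was −0.09 over 10 genes. CDK1, the kinase that drives mitosis, read 15128 in HCT116-GFP and 10359 in HCT116-CPEB4 at its representing probe set (−0.55), and values below keep this order. Its other 3 probe sets read 3533 and 3519 (−0.01), 4786 and 5275 (0.14), and 122 and 117 (−0.06). The lower reading of CDK1 thus came from 1 of its 4 probe sets, and their mean was −0.12. CDC25B, a phosphatase that removes inhibitory phosphates from CDK1, read 5128 and 3673 (−0.48) at its single probe set. CDC25C, its relative, read 817 and 701 (−0.22), with a pair of further probe sets under the dim filter.

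The cyclins went in different directions. CCNA2, cyclin A, which pairs with kinases of S phase and G2, read 3798 and 4239 (0.16), and 1455 and 1802 (0.31) at its other probe set. CCNB1, cyclin B1, read 7444 and 8695 (0.22), but 3829 and 3424 (−0.16) at its other probe set. CCNB2, cyclin B2, read 6564 and 5727 (−0.20). Cyclin A was thus higher at both of its probe sets, and the direction for cyclin B1 depended on the probe set read.

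The remaining kinases of this group went both ways. PLK1, the Polo-like kinase of mitotic entry and cytokinesis, read 190.2 and 167 (−0.19). AURKB, the catalytic subunit of the chromosomal passenger complex, read 1488 and 1279.9 (−0.22). Both had both arrays over the dim filter, PLK1 under the stricter one. AURKA, the Aurora kinase of spindle poles, read 4095 and 4745 (0.21), and 3849 and 4137 (0.10) at its other probe set. PLK4, which starts centriole duplication, read 707 and 869 (0.30), but 672 and 626 (−0.10) at its second probe set. NEK2, which parts the centrosomes, read 3922 and 3978 (0.02), and 400.5 and 393 (−0.03). AURKA was thus higher at both of its probe sets over the filter, PLK4 had no settled direction, and NEK2 was nearly equal on the arrays.

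**Figure D3:**
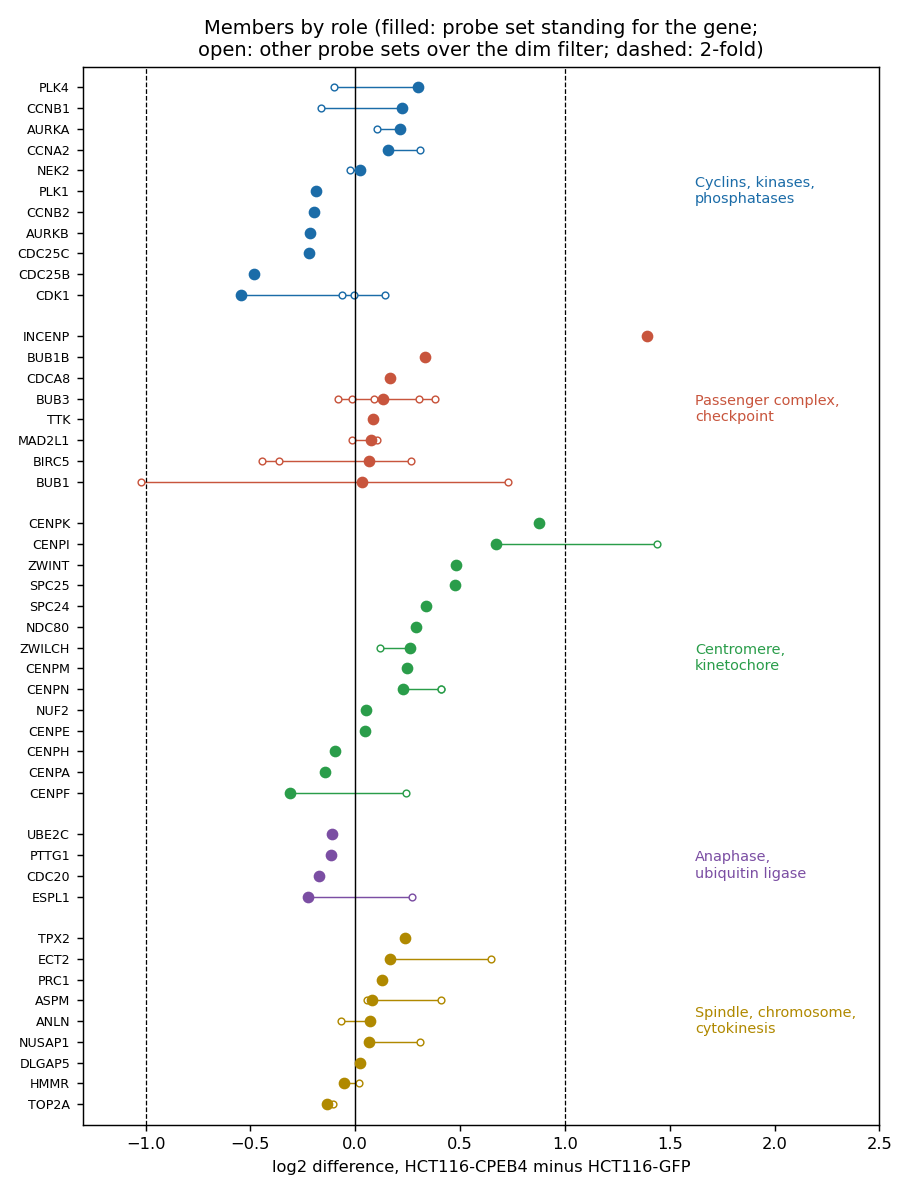
Log2 difference, HCT116-CPEB4 minus HCT116-GFP (horizontal axis), for each of 46 members (rows) grouped by role; filled points are the probe set standing for the gene, open points its other probe sets over the dim filter, and dashed lines mark 2-fold. At the filled points, the 8 passenger and checkpoint genes lie above 0 and the 4 anaphase genes lie below it. Probe sets of CDK1, BIRC5, BUB1 and ESPL1 fall on both sides.

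In the chromosomal passenger complex and spindle checkpoint, all 8 genes lay above 0 at their representing probe sets, against 50.1% of all genes. Their median was 0.11. INCENP reached the dim filter only on the HCT116-CPEB4 array, so nothing is read from its place in that count. Under the stricter filter, which leaves INCENP out, 7 of 7 lay above 0 and the median was 0.08. When the probe sets of each gene over the dim filter were averaged, 6 of 8 lay above 0. BIRC5 (−0.12) and BUB1 (−0.09) then fell below it. INCENP, the scaffold of the passenger complex, read 35.3 and 92.6 at its single probe set, a difference of 1.39. The first value lies under the dim filter, and with 16 units added to both the difference was 1.08, so its size is not settled. CDCA8, which encodes borealin of the same complex, read 1044 and 1173 (0.17). BIRC5, which encodes survivin, read 5248 and 5497 (0.07), with 0.27, −0.36 and −0.44 at its other probe sets. With AURKB at −0.22, the 4 genes of the complex did not share a direction, and the large difference of INCENP rests on dim values.

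At their representing probe sets, checkpoint genes other than BUB1B were close to equal on the arrays. BUB1B, which encodes BubR1, an inhibitor of the anaphase-promoting complex, read 3357 and 4225 (0.33). BUB3, which brings BUB proteins to kinetochores, read 13819 and 15145 (0.13), with its 6 probe sets from −0.08 to 0.38. TTK, the MPS1 kinase that starts checkpoint signalling, read 2633 and 2788 (0.08). BUB1B had the highest difference of the checkpoint genes, with no other probe set of its own to compare. MAD2L1, the checkpoint protein MAD2, read 12367 and 13018 (0.07), with probe sets from −0.01 to 0.10. BUB1, a checkpoint kinase, read 3399 and 3478 (0.03), while its dimmer probe sets read 53.6 and 88.7 (0.73) and 61.0 and 30.01 (−1.02).

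Centromere and kinetochore genes had the highest median of the 5 role groups, 0.25 or 1.19-fold over 14 genes, with 11 above 0 and 3 below. The largest values were in the inner kinetochore network that sits on centromeric chromatin. CENPK read 802 and 1474 (0.88, or 1.84-fold) at its single probe set, and 95.7% of all genes had a smaller difference. CENPI read 187 and 297 (0.67, or 1.59-fold), and 100.1 and 272 (1.44) at its other probe set, while a pair of further probe sets lay under the dim filter. CENPN, which reads the centromeric nucleosome, read 4217 and 4935 (0.23), 792 and 1050.4 (0.41), and 332 and 440.4 (0.41). CENPM read 790 and 938 (0.25). CENPH was the 1 network member below 0, at 1672 and 1563 (−0.10). CENPI and CENPN were thus higher at every probe set over the filter, whereas CENPK and CENPM rest on 1 probe set each.

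The NDC80 complex, which grips the microtubule end, was above 0 at all 4 subunits. SPC25 read 1825 and 2539 (0.48), SPC24 read 414 and 524 (0.34), NDC80 read 1773 and 2167 (0.29) and NUF2 read 2579 and 2672 (0.05). The values ran from nearly equal for NUF2 to 1.39-fold for SPC25, and each came from 1 probe set over the filter. ZWINT, which helps to recruit the RZZ complex to kinetochores, read 5529 and 7718 (0.48). ZWILCH, a subunit of that complex, read 2374 and 2842 (0.26), and 474 and 515 (0.12) at its other probe set.

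The remaining centromere genes were lower or nearly equal. CENPA, the histone variant that marks the centromere, read 944 and 855 (−0.14), and a probe set it shares with a second gene was left out. CENPE, a kinetochore motor, read 607 and 627 (0.05). CENPF, a large protein of the outer kinetochore, read 1538 and 1239 (−0.31), but 373 and 441 (0.24) at its other probe set. The group was therefore not uniform: its lowest member, CENPF, lay at −0.31 and its highest, CENPK, at 0.88.

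Genes of anaphase and its ubiquitin ligase were all slightly lower, with a median of −0.14 over 4 genes. CDC20, which activates the anaphase-promoting complex, read 5821 and 5169 (−0.17). UBE2C, the ubiquitin-conjugating enzyme of that complex, read 7200.1 and 6669.6 (−0.11). PTTG1, which encodes securin, the inhibitor of separase, read 14619 and 13479 (−0.12). ESPL1, separase itself, read 1042 and 893 (−0.22), but 726 and 875 (0.27) at its other probe set. The largest of these differences was 1.17-fold, with −0.22 on the log2 scale against a median gap of 0.27 between probe sets over all genes, and ESPL1 had no settled direction.

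Genes of the spindle, chromosome structure and cytokinesis were close to equal on the arrays, with a median of 0.07 over 9 genes, 7 above 0 and 2 below. TPX2, which activates Aurora A on the spindle, read 1646 and 1942 (0.24). PRC1, which bundles the central spindle, read 6127 and 6685 (0.13). ASPM, a spindle pole protein, read 1562 and 1649 (0.08), with 0.41 and 0.06 at its other probe sets. DLGAP5, which steadies spindle fibres, read 4153 and 4216 (0.02). HMMR, a spindle-associated hyaluronan receptor, read 5544 and 5340 (−0.05), and 2027 and 2053 (0.02). The spindle factors were thus within 1.18-fold of equal at their representing probe sets.

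NUSAP1, which cross-links spindle microtubules, read 7865 and 8228 (0.07), and 1382 and 1711 (0.31) at its other probe set. TOP2A, the topoisomerase that untangles chromosomes, read 2476 and 2254 (−0.14), and 2322 and 2154 (−0.11). Its probe sets gave nearly the same small difference. For cytokinesis, ANLN, a scaffold of the contractile ring, read 6297 and 6604 (0.07), and 1407 and 1344 (−0.07). ECT2, the exchange factor that activates RhoA at the division plane, read 4959 and 5559 (0.16), with 162 and 254 (0.65) at a dimmer probe set.

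Further genes of the pathway were taken from 6 lists by function. Of 131 listed genes 123 were measured, 92 of them above 0 and 31 below, with a median of 0.11. By 1.5-fold, 2 were higher and 3 lower, against 8.22% and 8.30% of all genes. None of the 123 passed 2-fold in either direction, against 3.55% and 3.85%. Further kinetochore and checkpoint genes resembled the kinetochore members: 23 of 26 lay above 0 with a median of 0.21. An excess above 0 was not particular to them. Above 0 were also 23 of 29 further spindle, centrosome and cytokinesis genes and 29 of 34 replication and G1/S genes. The counts were lower for mitotic kinesins (7 of 12) and transcription regulators (9 of 15). Members and lists were chosen with earlier results of these data known. The likeness of the further kinetochore and checkpoint genes to the members is thus a description and not an independent check. Highest were MIS12, of the complex that links inner and outer kinetochore, at 913 and 1345 (0.56), and CENPO, at 229.5 and 316 (0.46). Lowest were SGO1, shugoshin, at 109.8 and 83.0 (−0.40, but 0.26 at a second probe set), and HJURP, the chaperone of CENPA, at 1493 and 1314 (−0.18). Together with the 14 centromere and kinetochore members, 34 of 40 genes lay above 0, against 50.1% of all genes, with a median of 0.22. The checkpoint members, such as BUB1 and TTK, are not among the 40. Of the 40, 38 were within 1.5-fold, against 11441 of all 13704 genes and 8050 of the 8459 genes left by the stricter filter.

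The remaining lists had medians between 0.01 and 0.10. Mitotic entry kinases and CDK partners (17 genes, 12 above 0) had a median of 0.09. MASTL, the Greatwall kinase that restrains the phosphatase opposing CDK1, read 493 and 904 (0.87), and GTSE1 read 933 and 1245 (0.42). NEK7 and NEK6 were lowest at −0.26 each. Subunits and regulators of the anaphase-promoting complex (16 measured, 11 above 0) had a median of 0.10, from ANAPC7 (0.25) and ANAPC2 (0.24) to UBE2S (−0.26) and the activator FZR1 (−0.40, with probe sets up to 0.46). Here too, values near 0 prevailed, and MASTL was the 1 gene of both lists past 1.5-fold.

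Condensin and cohesin genes (20 genes, 14 above 0) had a median of 0.09. The cohesin subunit STAG1 read 0.37 with −0.19 at its other probe set, and NCAPH2 read 0.27 with a probe set at −1.14. STAG2, its relative, read 5775 and 4017 (−0.52), and its 3 probe sets lay between −0.52 and −0.46. The condensin subunit NCAPD2 differed by −0.30. STAG2 was therefore lower at every probe set, whereas STAG1 and NCAPH2 had no settled direction. Spindle, centrosome and cytokinesis genes (29 measured, 23 above 0) had a median of 0.09, with HAUS3 and STIL highest at 0.43 each. CKAP5, a microtubule polymerase, was lowest at 1294 and 829.9 (−0.64), or −0.36 at a second probe set, and HAUS5 read −0.30, with 0.72 as its highest probe set.

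Transcription regulators of mitotic genes had a median of 0.01 over 15 genes, with 9 above 0. RBL1, the DREAM subunit p107, read 246 and 451 (0.87), but −0.05 at its other probe set, and LIN54, which contacts the CHR, read 178 and 260 (0.55). E2F5 read 456 and 253 (−0.85) and E2F4 read 721 and 428 (−0.75), with 0.08 at the other probe set of E2F4. The direction for RBL1 and E2F4 depended on the probe set.

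Compared with related cell cycle genes, the mitotic members lay below those of replication. Replication and G1/S genes had a median of 0.30 over 34 genes, with 29 above 0 and 8 higher by 1.5-fold or more. The mitotic members had 31 of 46 above 0 and 3 higher by that much, INCENP among the 3. Over all genes the shares were 50.1% and 8.22%. Under the stricter filter, which leaves out INCENP and CENPI, 1 member was higher by 1.5-fold. The highest were CDC25A (223 and 726, 1.70, and 0.44 at a second probe set) and GINS2 (0.83, with probe sets from −0.58 to 1.10), and the lowest GINS4 (−0.32, with 0.30 at its other probe set) and ORC1 (−0.18). The kinetochore members, at a median of 0.25, were closest to the replication genes, and the cyclin and kinase group (−0.19) and the anaphase group (−0.14) lay farthest from them. Under the stricter filter these 2 groups change order, at −0.09 and −0.14. Mitotic kinesins resembled the members as a whole, with a median of 0.08 over 12 genes and 7 above 0. KIF20B (0.42, with −0.51 at its other probe set) and KIF11 (0.34) were highest, and KIF20A (−0.50) and KIFC1 (−0.39) lowest. With 1 array for each line, none of these differences between lists can be tested.

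**Figure D4:**
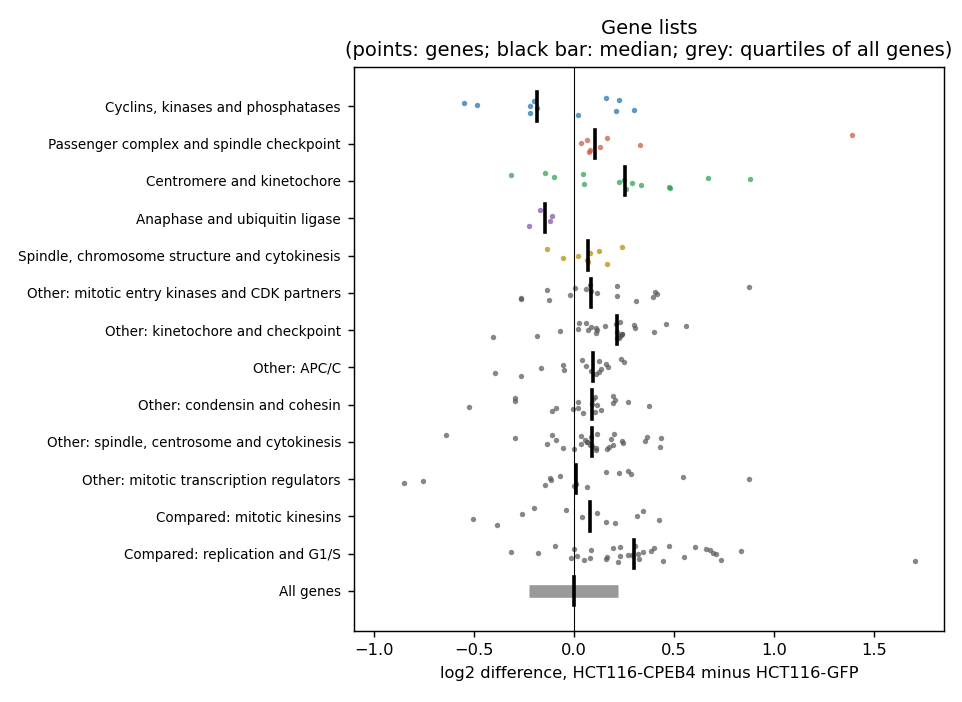
Log2 difference, HCT116-CPEB4 minus HCT116-GFP (horizontal axis), for the genes of each list (rows), with points for genes, black bars for medians and a grey bar for the quartiles of all 13704 genes. Medians are highest for replication and G1/S (0.30) and for the centromere and kinetochore group (0.25), and lowest for cyclins, kinases and phosphatases (−0.19). Under the stricter filter, not drawn here, that last median is −0.09 and the anaphase group (−0.14) is lowest.

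**Figure D5:**
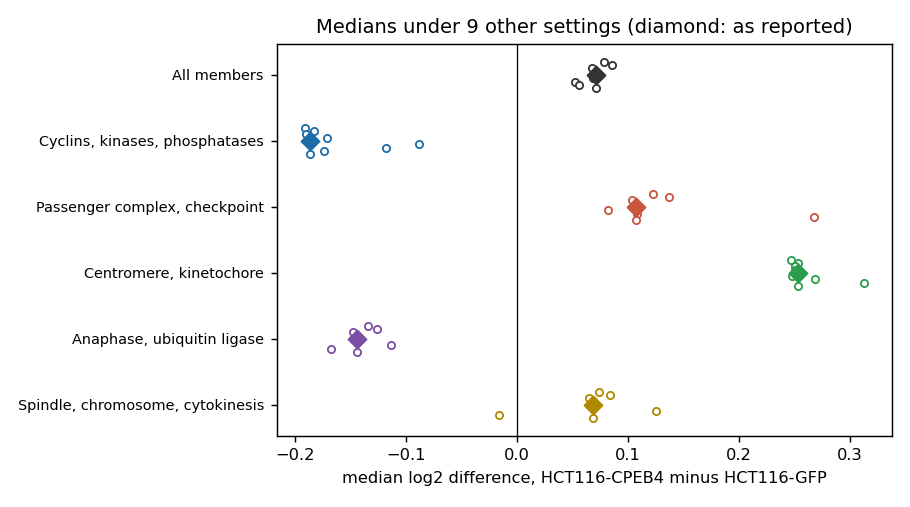
Median log2 difference, HCT116-CPEB4 minus HCT116-GFP (horizontal axis), for all members and for each role group (rows), as reported (diamonds) and under 9 other settings (open circles). The kinetochore medians stay between 0.25 and 0.31 and the cyclin and kinase medians between −0.19 and −0.09, while the spindle group has 1 circle below 0, at −0.02.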

How the data were processed

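Total RNA of 1 HCT116-GFP and 1 HCT116-CPEB4 culture was labelled with biotin and measured on 3′ expression arrays, per the labels. The authors deposited linear intensities, 1 per probe set on each array. The submitters' processing notes name Partek and no version. No source used here gives the probe set summarisation, the background correction or the scaling, though equal trimmed means (2% removed at each end) show a common overall level. Of 54675 probe sets, 41097 carry 1 gene symbol in the platform annotation, 1801 several and 11777 none used here; symbols were updated by Entrez identifier to RefSeq (GRCh38.p14), which held 41043. Probe sets with several genes and 62 controls were left out.

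Log2 was taken without a pseudocount. The dim filter is the 50th percentile of all values and the stricter one the 75th. Each gene took its kept probe set of highest mean log2 intensity; 25010 probe sets were kept. The folds of 1.5 and 2 are rules of size. Members, lists and named genes (all members, the genes past 2-fold, and otherwise the 2 highest and 2 lowest of each other list) were chosen with earlier results of these data known. The steps were tested on simulated data with changes larger than 2-fold and less noise than the gap between probe sets implies. That check does not bear on differences as small as most of those reported. Python 3.11.15, pandas 2.3.3, SciPy 1.17.1 and statsmodels 0.14.6 were used. With 1 array a line, precision is limited by their number.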

Additional observations from a re-analysis of the deposited data

How the results depend on the processing

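The 9 alternatives were quantile normalization, loess, equal medians, a pseudocount of 16, no dim filter, the 75th percentile filter, the mean over probe sets, no probe sets ending in _x_at or _s_at, and choice by the HCT116-GFP value. The median over all members ran from 0.05 to 0.09, and members past 1.5-fold downwards stayed at 0. Over these settings, 39 of 46 members kept their sign wherever measured, and ANLN, BIRC5, BUB1, CCNB1, ESPL1, NEK2 and PLK4 did not. For the 25 members with 1 probe set over the dim filter, choosing or averaging probe sets could not change the sign. Of the 21 with several, 12 had probe sets on both sides of 0. The count of 39 is therefore no measure of how firm the signs are. Under the 75th percentile filter, which leaves out INCENP and CENPI, 1 member was higher by 1.5-fold and 0 by 2-fold. With the mean over probe sets, 2 were higher by 2-fold, as CENPI came to 1.06, CDK1 was −0.12, and the kinesin median was −0.042. Without the _x_at and _s_at probe sets, 33 members remained, the passenger and checkpoint median was 0.27 over 7 genes, the spindle group median was −0.02, and 22 members lay above 0. INCENP came to 1.08 with the pseudocount. No scaling moved the median of all genes beyond 0.01 from 0. No paired analysis was possible because each line has 1 array.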
